A study of Mus musculus with 17 samples.

Results

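The collagens and the enzymes and inhibitors that remodel the extracellular matrix were described in colon tissue of mice exposed to pyridostigmine bromide (PB), a drug that blocks acetylcholinesterase for a time. The members were taken by gene symbol from a table of raw read counts, and 95 of its 23719 entries matched: 44 collagen chains, 23 matrix metalloproteinases (Mmp), 4 tissue inhibitors of metalloproteinases (Timp), 5 lysyl oxidases (Lox, Loxl) and 19 ADAMTS proteinases. The samples were colons of 17 male C57BL/6 mice aged 32 to 34 weeks. The 8 GWI mice, named after Gulf War illness, took PB at 2 mg/kg with their drinking water for 7 days, went without it for 21 days and were examined at day 30, and the 9 Control mice were given water. Each sample was bulk colon tissue, and the labels do not name the layers in it.

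Fibrillar collagens give tissue its tensile strength, collagen IV forms the sheet of the basement membrane, and collagen VI makes fine filaments around cells. Procollagen chains are folded and trimmed, in part by ADAMTS proteinases, and lysyl oxidases then cross-link the fibres. Metalloproteinases cut matrix proteins and are held in check by the Timps. In the gut wall, fibroblasts and smooth muscle cells make most of this matrix, and some metalloproteinases come from the epithelium.

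Depth was similar in the groups: libraries held 16744096 to 20741212 counts in Control mice (median 17761682) and 16293537 to 18389686 in GWI mice (median 17428511). The 95 genes took 0.06% to 0.295% of all counts in the Control mice, with a median of 0.186%, and 0.106% to 0.21% in the GWI mice, with a median of 0.138%. The shares overlapped between the groups, and both the lowest and the highest belonged to Control mice, replicates 9 and 6. Levels below are CPM, counts scaled to a common library size by edgeR with the trimmed mean of M-values (TMM).

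Markers of the colon were present in every mouse. The 11 colon epithelium markers summed to 27307 to 45638 CPM in Control mice (median 32448) and to 29754 to 47354 CPM in GWI mice (median 37215). Car1 had the highest mean in Control mice (12478 CPM), while Car1 and Muc2 were close in GWI mice (11963 and 11981 CPM). Of the 4 exocrine pancreas markers in the table, Cpa1 had 0 counts in all mice, and the summed level reached 0.189 CPM at most. Some libraries stood apart by genes outside the matrix families. Fabp6, a bile acid binding protein of the ileum, was at 119 CPM in Control replicate 6 and 314 CPM in Control replicate 7, against at most 6.9 CPM in the other 15 mice. The same 2 mice had 189 and 330.2 CPM of Lyz1 and 60.4 and 120.0 CPM of Defa24, both genes of Paneth cells, which normally sit in the small intestine. Hoxb13, a homeobox gene of the most distal hindgut, was at 55.5 CPM in Control replicate 1 and 11.4 CPM in GWI replicate 5 and at most 2.67 CPM elsewhere. In Control replicate 9 the 10 most abundant genes took 23.1% of the counts, against 9.72% to 17.3% in the other mice. For the genes named by rule, a call that changes without these mice is given with and without them. The fits that leave out several of them were chosen after the data were seen.

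Of the 95 genes, 71 had enough counts to be tested, 34 collagens and 37 enzymes and inhibitors. At an adjusted p under 0.05 (edgeR's quasi-likelihood test, Benjamini-Hochberg adjustment, BH, over 14146 tested genes), 5 of the 71 were called lower in GWI and 1 was called higher. Among all tested genes, 13.5% were called lower and 13.4% were called higher, 26.8% in either direction, so in this fit the 8.45% of the tested matrix genes that were called lie below the share over all genes. That depends on the fit, as a limma-voom fit given below called a larger share of the matrix genes lower than of all genes. The calls were Col28a1, Mmp16, Mmp11, Mmp7 and Timp3, lower in GWI, and Col20a1, higher in GWI. Since each sample was bulk tissue, fewer cells of a type and less RNA per cell cannot be told apart.

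Most of the fold changes were below 0 all the same. The log2 fold change of GWI over Control was negative for 52 of the 71 genes (73.2%), against 55.2% of all tested genes, and its median was -0.38 over the 34 collagens, -0.33 over the 37 enzymes and inhibitors and -0.06 over all tested genes. Without Control replicate 1 or 6 the median of the enzymes and inhibitors was -0.18 or -0.22, and that of the collagens was -0.28 or -0.26. Without GWI replicate 5 these medians were -0.45 and -0.52. With other scalings of the libraries the medians lay between -0.48 and -0.38, between -0.42 and -0.33 and between -0.15 and -0.06. Upper-quartile scaling raised the share of lower calls among all calls from 50.2% to 71.1%. With it 4 collagens and 7 enzymes and inhibitors were called lower, against 21.2% of all tested genes (edgeR). In that fit 0 of both were called higher, against 1214 of all 14146 tested genes.

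The matrix genes varied more between mice of a group than most genes did. The standard deviation of log2 CPM within the groups had a median of 0.56 over the 71 genes and of 0.31 over all tested genes, and the median standard error (SE) of a fold change was 0.29 against 0.16. The groups overlapped in all 71 matrix genes, and they did not overlap in 2.35% of all tested genes, a share so low that 0 of 71 lies near it. The count of calls moved with the tool and with single mice. With limma-voom and sample quality weights, a fit that changes both the test and the weight of each mouse and gave Control replicate 9 the lowest weight (0.117), 20 of 34 collagens and 16 of 37 enzymes and inhibitors were called lower and 1 and 4 higher, against 29.5% lower and 27.6% higher over all tested genes. The lower calls thus lay above the share over all genes with limma-voom, and the higher calls below it. Of the genes named by rule, that fit added lower calls for Col3a1, Col4a1, Col4a2, Col6a1, Col6a2, Col12a1, Col16a1, Col18a1, Col23a1 and Col25a1. It also added lower calls for Loxl1, Adamts1, Adamts8 and Timp2, and higher calls for Adamts18, Mmp15 and Mmp28. Col9a2, described below but not named by rule, was called lower as well (-1.47, limma-voom, BH adjusted p = 0.00101). Without Control replicate 9, edgeR called 5 collagens and 6 enzymes and inhibitors lower, against 15.8% of all tested genes, and without GWI replicate 5 it called 5 and 5, against 14.5%. Collagens called lower numbered 2 without Control replicate 1, 3 without Control replicate 8 and 4 without GWI replicate 8. Over all tested genes, the shares called lower in these fits were 16.3%, 14.0% and 13.7%. Enzymes and inhibitors called lower fell to 2 without Control replicate 3 or GWI replicate 1, 2 or 6. They fell to 1 without Control replicate 4 or 6 or GWI replicate 3, 4 or 7. The share of all tested genes called lower fell as well, from 13.5% to between 9.39% and 11.2% in the former fits. In the latter fits that share was between 9.21% and 11.4%. Enzymes and inhibitors called higher numbered 0 with all mice (4 at an unadjusted p under 0.05, 2 by DESeq2). They numbered 1 without Control replicate 1 or 8 and 2 without Control replicate 9 or GWI replicate 5. Over all tested genes, 1889 were called higher with all mice, and 2523, 1746, 2272 and 1857 in these 4 fits.

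**Figure D1:**
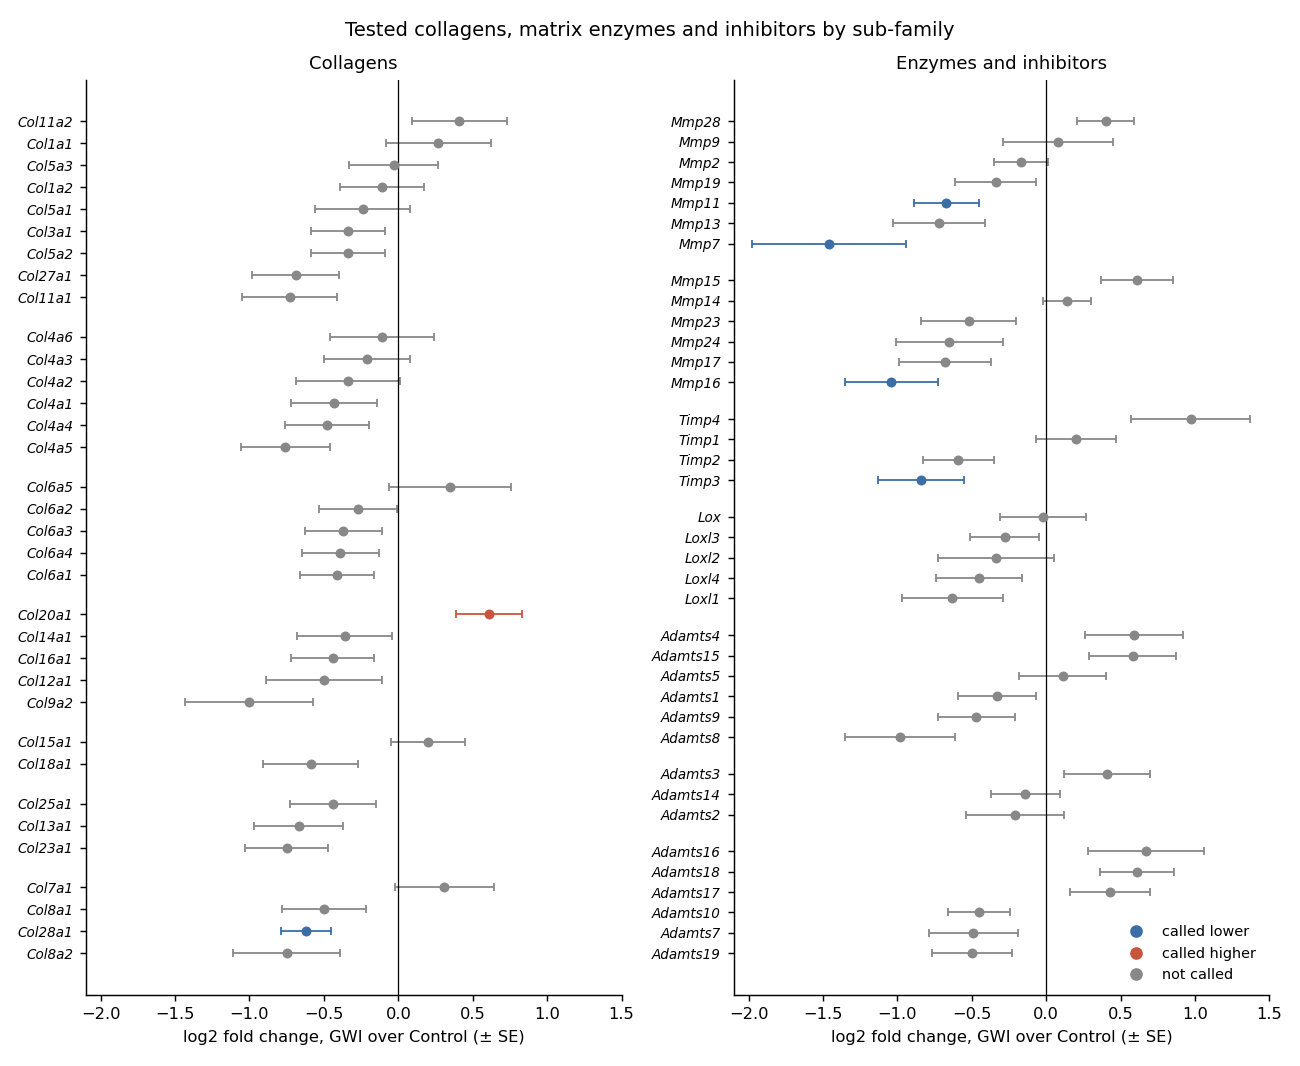
Log2 fold change of GWI over Control, with its standard error, for the 34 tested collagens (left) and the 37 tested enzymes and inhibitors (right), grouped by sub-family. Points left of 0 are lower in GWI, and the 6 genes called at an adjusted p under 0.05 are coloured, 5 lower and 1 higher.

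Of the 11 fibrillar collagens, 9 were tested and edgeR called 0, with 2 at an unadjusted p under 0.05, both lower in GWI. DESeq2 called Col27a1 lower, and so did edgeR without GWI replicate 5 (-1.0, BH adjusted p = 0.00797) and with upper-quartile scaling (0.0497). Leaving out the 5 mice that stood apart gave that call too (-0.87, edgeR, BH adjusted p = 0.0111). Col27a1 was not called without Control replicate 9, or with a smooth muscle covariate (-0.21). Col11a1 was called lower without Control replicate 9 (-0.83, edgeR, BH adjusted p = 0.0421). Col3a1, the collagen of fine reticular fibres, had the highest level per length of all collagens, 17.7 CPM per kb of merged exons. It ranged from 92.2 to 368 CPM in Control mice (median 179) and from 96.5 to 293 CPM in GWI mice (median 141). The groups overlapped widely, with 7 of 8 GWI mice below the Control median. Its log2 fold change of -0.34 (SE 0.25) did not pass the test (edgeR, BH adjusted p = 0.298). It was -0.17 without Control replicate 1 and -0.55 without GWI replicate 5, the highest mouse of each group.

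Col1a1 encodes the more abundant chain of type I collagen, the main fibre of scar and tendon, and stood at 11.7 CPM per kb. Its level was 18.7 to 144 CPM in Control mice (median 55.0) and 36.4 to 164 CPM in GWI mice (median 78.7). The Control mice held the lowest value and GWI replicate 8 the highest. Its log2 fold change of 0.27 (SE 0.35) was not called (edgeR, BH adjusted p = 0.578), and with limma-voom it turned to -0.13. It was 0.47 without Control replicate 1, 0.15 without Control replicate 9 and 0.06 without GWI replicate 8. The other 7 tested fibrillar chains ran from -0.73 for Col11a1 to 0.41 for Col11a2, and the median of all 9 was -0.24. Between these lay Col27a1 (-0.69), Col5a2 (-0.34), Col5a1 (-0.24), Col1a2 (-0.11) and Col5a3 (-0.03), and Col24a1 and Col2a1 failed the filter.

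Collagen IV, the network of basement membranes, has 6 chains, and all 6 were tested with log2 fold changes between -0.76 (Col4a5) and -0.11 (Col4a6). edgeR called 0, with 1 at an unadjusted p under 0.05, Col4a5, which DESeq2 called. The highest Control mice for Col4a5 were replicates 6 and 7, those with Fabp6 and Lyz1, at 35.9 and 27.9 CPM. The other Control mice were at 6.06 to 16.2 CPM and the GWI mice at 5.8 to 14.3 CPM. edgeR called Col4a5 lower without Control replicate 1 and GWI replicate 5 (BH adjusted p = 0.041) and with upper-quartile scaling (0.0433). It was not called without Control replicates 6 and 7 or without the 5 mice that stood apart. The widespread chains Col4a1 and Col4a2 were the most abundant, at 12.4 and 10.3 CPM per kb. Col4a1 lay between 32.8 and 213 CPM in Control mice (median 95.3) and between 50.0 and 122 CPM in GWI mice (median 71.5). All GWI values fell inside the Control range, and the log2 fold change was -0.43 (SE 0.29; edgeR, BH adjusted p = 0.271), or -0.23 without Control replicate 6, the highest mouse. Col4a2 was at 16.4 to 156 CPM in Control mice (median 73.5) and at 34.6 to 110.0 CPM in GWI mice (median 52.2), with a log2 fold change of -0.34 (SE 0.35; edgeR, BH adjusted p = 0.481). It was -0.20 without Control replicate 1, -0.14 without Control replicate 6 and -0.52 without GWI replicate 5. Col4a3 and Col4a4, chains best known from kidney, were far lower, at 0.0802 and 0.0825 CPM per kb.

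The chains Col4a1 and Col4a2 start from opposite strands at the same place. In RefSeq (GRCm38.p6) transcription of Col4a1 starts at 11312826 on chromosome 8 on the minus strand and that of Col4a2 at 11312805 on the plus strand, so that their first exons share 22 bases. Whether the shared start bears on the levels of the 2 genes was not tested. The shared stretch, chr8:11312805-11312826 on the plus strand, is shown here.
Col4a1 and Col4a2: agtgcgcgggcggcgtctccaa
The ratio of Col4a1 to Col4a2 counts was 1.22 to 2.0 in Control mice (median 1.37) and 1.11 to 1.53 in GWI mice (median 1.33), and 5 of 8 GWI mice lay below the Control median.

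Collagen VI, which surrounds muscle fibres and fat cells, had 5 of 6 chains tested and 0 called by edgeR, with 0 at an unadjusted p under 0.05 and 0 by DESeq2; Col6a6 failed the filter. Col6a1 stood at 15.0 CPM per kb, with 30.9 to 128 CPM in Control mice (median 64.5) and 37.6 to 83.7 CPM in GWI mice (median 54.2). The GWI values lay inside the Control range, and the log2 fold change was -0.41 (SE 0.25; edgeR, BH adjusted p = 0.217), or -0.27 without Control replicate 6. Its partner Col6a2 had a log2 fold change of -0.27 (SE 0.26; edgeR, BH adjusted p = 0.433), from 14.3 to 77.3 CPM in Control mice (median 50.4) and 26.5 to 58.6 CPM in GWI mice (median 40.2). Without Control replicate 1 or 6 it was -0.16 or -0.17. The remaining chains had log2 fold changes of -0.37 (Col6a3), -0.39 (Col6a4) and 0.35 (Col6a5).

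Among the fibril-associated collagens, which sit on the surface of fibres, 5 of 9 were tested. Col20a1 was the only collagen called higher in GWI. It was a low gene, with 26 to 46 counts in each Control mouse and 28 to 70 in each GWI mouse, or 1.15 to 2.65 CPM (median 2.02) against 1.61 to 4.29 CPM (median 3.04). Of the 8 GWI mice, 7 lay above the Control median and 5 above every Control mouse, while the lowest GWI values overlapped with Control. The log2 fold change was 0.61 (SE 0.22; edgeR, BH adjusted p = 0.0495). This call stood at the threshold: leaving out any of 12 single mice (Control replicates 2, 3, 4, 5, 6 and 8 and GWI replicates 1, 2, 4, 5, 7 and 8) took the adjusted p to between 0.0526 and 0.103, and further fits ended it too. These used DESeq2 size factors (edgeR, BH adjusted p = 0.0504), upper-quartile scaling (0.0813), no filter (0.0628), the smooth muscle covariate (log2 fold change 0.65, 0.0512), or lacked Control replicates 6 and 7 (0.0779), Control replicate 1 and GWI replicate 5 (0.0546) or the 5 mice that stood apart (0.0589), in a range of 0.0104 to 0.0813 over the other fits. Col20a1 lies at chr2:180986535-181018363 (GRCm38), and a transcript on its own strand overlaps 1.5% of its exons.

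Col12a1 and Col16a1 were the most abundant fibril-associated chains, at 5.42 and 3.4 CPM per kb. Col12a1, found on collagen I fibres under tension, spanned 13.4 to 169 CPM in Control mice (median 115) and 43.5 to 118 CPM in GWI mice (median 58.8). The Control values covered the whole GWI range, and the log2 fold change of -0.50 (SE 0.39) was not called (edgeR, BH adjusted p = 0.335). Col16a1 had a log2 fold change of -0.44 (SE 0.28; edgeR, BH adjusted p = 0.25), with 11.2 to 50.0 CPM (median 25.7) and 12.1 to 39.2 CPM (median 15.9). It was -0.27 without Control replicate 1 and -0.67 without GWI replicate 5, and without the 5 mice that stood apart it was called lower (-0.56; edgeR, BH adjusted p = 0.0314, in a range of 0.00296 to 0.298 over the other fits). Col9a2, better known from cartilage, had the lowest log2 fold change of any collagen, -1.0 (SE 0.43, edgeR, BH adjusted p = 0.088). DESeq2 called it, and so did edgeR without Control replicate 9 (-1.13, BH adjusted p = 0.0317) and without the 5 mice (-1.29, 0.0299). With the smooth muscle covariate the log2 fold change of Col9a2 turned to 0.24 (edgeR, BH adjusted p = 0.645). All 8 GWI mice were below its Control median of 10.9 CPM, and so were Control replicates 6, 7, 8 and 9, at 9.39, 3.92, 1.51 and 1.53 CPM. Col14a1 had a log2 fold change of -0.36, and the other 4 fibril-associated chains, Col9a1, Col9a3, Col19a1 and Col22a1, failed the filter.

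The multiplexins Col15a1 and Col18a1, proteoglycans of basement membrane zones, pointed in opposite directions and edgeR called 0 of them, with 0 at an unadjusted p under 0.05 and 0 by DESeq2. Col18a1, the source of endostatin, was at 10.5 to 95.1 CPM in Control mice (median 51.9) and 24.7 to 53.0 CPM in GWI mice (median 28.5). Its log2 fold change was -0.59 (SE 0.32; edgeR, BH adjusted p = 0.167), and without Control replicate 9, the lowest mouse, it became -0.71 (edgeR, BH adjusted p = 0.0393, in a range of 0.0393 to 0.33 over the 17 fits with a mouse left out). Col15a1 was at 4.74 to 19.1 CPM in Control mice (median 14.1) and 7.34 to 25.4 CPM in GWI mice (median 13.0), with a log2 fold change of 0.20 (SE 0.25; edgeR, BH adjusted p = 0.549), or 0.10 without Control replicate 9, 0.04 without GWI replicate 7 and -0.01 with limma-voom.

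Collagens that span the plasma membrane numbered 4, of which 3 were tested and edgeR called 0, with 2 at an unadjusted p under 0.05; DESeq2 called Col23a1. Col23a1, shed from cell surfaces, was at 7.53 to 30.3 CPM in Control mice (median 19.7) and 5.79 to 19.2 CPM in GWI mice (median 10.4). Every GWI mouse lay below the Control median, and Control replicates 3, 7, 8 and 9 lay among the GWI values. With a log2 fold change of -0.75 it was not called (SE 0.28; edgeR, BH adjusted p = 0.0528), and without Control replicate 8 or 9 or GWI replicate 5 or 8 the adjusted p was 0.0193 to 0.0426. It was called without Control replicate 1 and GWI replicate 5 (0.0301) and without the 5 mice (edgeR, BH adjusted p = 0.0262, in a range of 0.000154 to 0.841 over the other fits). It was called too with DESeq2 size factors (0.0478), upper-quartile scaling (0.0326) or at least 10 counts in every mouse (0.0489). With the smooth muscle covariate its log2 fold change was -0.05 (edgeR, BH adjusted p = 0.841). Col25a1, a collagen of neurons and muscle, was at 1.82 to 10.9 CPM (median 6.36) and 2.81 to 6.75 CPM (median 4.82), with a log2 fold change of -0.44 (SE 0.29; edgeR, BH adjusted p = 0.256). Without the 5 mice that stood apart Col25a1 was called lower (-0.76; edgeR, BH adjusted p = 0.0376, in a range of 0.0117 to 0.826 over the other fits). Col13a1 had a log2 fold change of -0.67, and Col17a1 was not tested.

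Col28a1 was the only collagen called lower in GWI, and the collagen with the smallest adjusted p. Its protein resembles the beaded collagens and is known from peripheral nerve. It lay between 5.13 and 11.4 CPM in Control mice (median 8.55) and between 4.19 and 6.81 CPM in GWI mice (median 5.7). All 8 GWI mice were below the Control median and 3 were below every Control mouse, while Control replicates 4 and 5, at 5.13 and 5.29 CPM, lay among the GWI values. Its log2 fold change was -0.62 (SE 0.17; edgeR, BH adjusted p = 0.014), and each of the 17 fits with a mouse left out kept the call. The call was lost with limma-voom and quality weights (BH adjusted p = 0.0527) and without Control replicates 1, 6, 7 and 9 and GWI replicate 5 together (-0.43; edgeR, BH adjusted p = 0.0815), in a range of 0.0029 to 0.0815 over the other fits. Col28a1 lies at chr6:7997808-8192617 (GRCm38, minus strand), and no other annotated exon overlaps its exons.

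Of the other collagens in that set, Col8a1, a network collagen of vessel walls, was the most abundant. It was at 11.2 to 35.8 CPM in Control mice (median 15.2) and 7.73 to 28.0 CPM in GWI mice (median 12.6). Its log2 fold change was -0.50 (SE 0.28; edgeR, BH adjusted p = 0.18), and without GWI replicate 5, the highest GWI mouse, it was -0.72 (edgeR, BH adjusted p = 0.0437, in a range of 0.0437 to 0.328 over the 17 fits with a mouse left out). Col8a2 and Col7a1, the anchoring fibril collagen, had log2 fold changes of -0.75 and 0.31, and Col10a1 and Col26a1 were not tested.

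**Figure D2:**
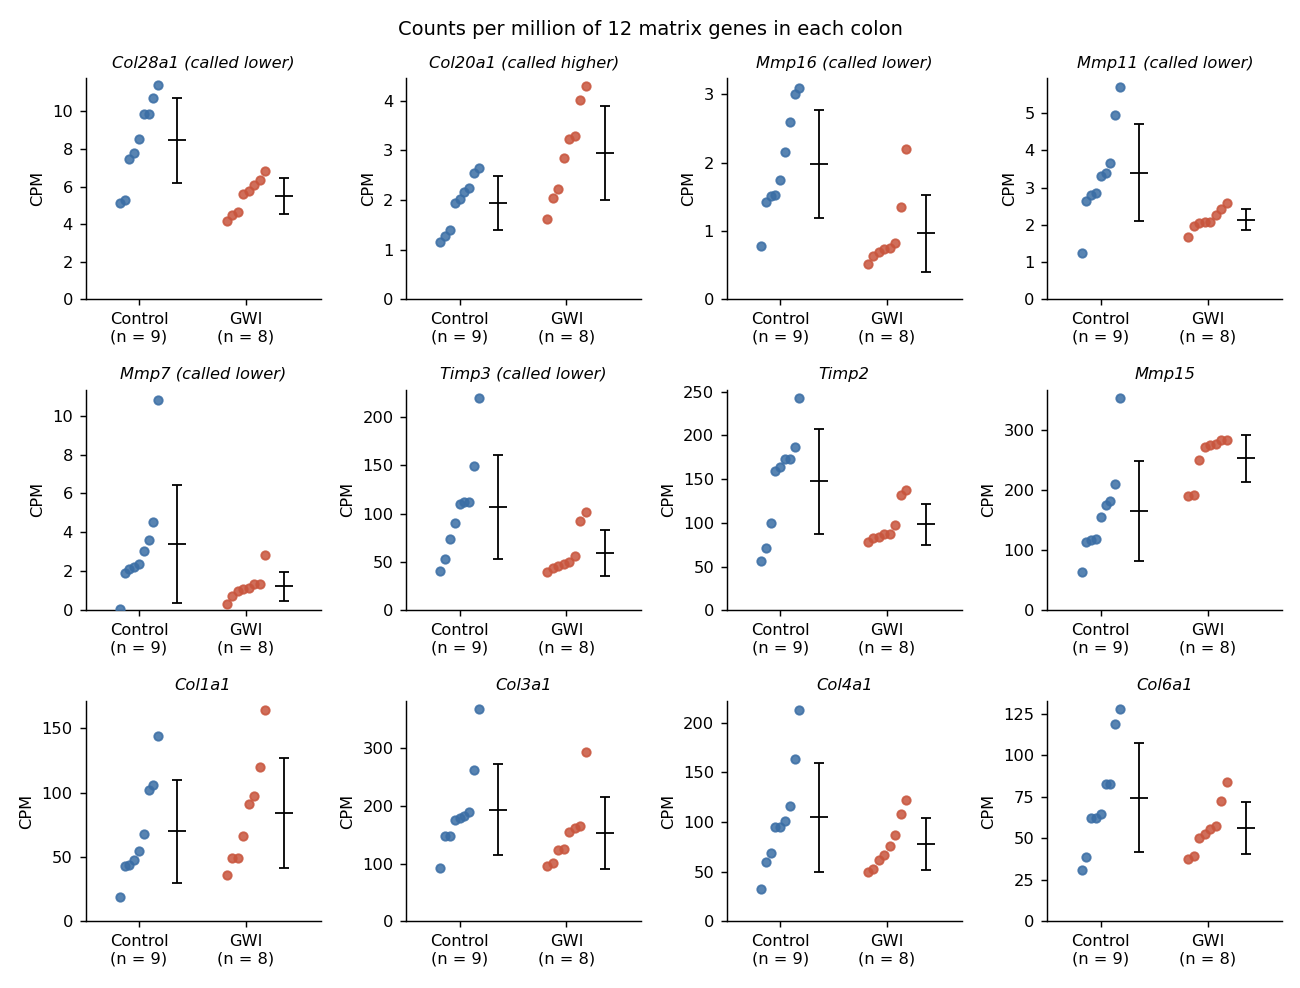
CPM of 12 genes in each of the 9 Control (blue) and 8 GWI (red) mice, with points ordered by value within a group and a bar for mean and SD. The 6 genes called by edgeR are named as such, and the values of the groups overlap in every panel.

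Only 7 of the 16 secreted metalloproteinases could be tested. Mmp7, or matrilysin, is made by epithelium and in the small intestine by Paneth cells, where it activates defensins. It was at 0.0632 to 10.8 CPM in Control mice (median 2.39) and at 0.315 to 2.86 CPM in GWI mice (median 1.11). The 2 highest mice were Control replicates 7 and 6, at 10.8 and 4.52 CPM, which are also those with Fabp6 and Lyz1, and the lowest in each group were Control replicate 1 and GWI replicate 5, those with Hoxb13. The part of these differences between libraries in the result was not tested beyond leaving them out. A log2 fold change of -1.46 was found (SE 0.52; edgeR, BH adjusted p = 0.0467). Without Control replicates 6 and 7 it was -0.83 and no longer called (adjusted p = 0.205), without Control replicate 1 and GWI replicate 5 it was -1.48 (adjusted p = 0.00928), and without all of these and Control replicate 9 it was -0.84 (adjusted p = 0.0419), each by edgeR and BH, in a range of 0.00928 to 0.205 over the other fits. Leaving out any of 13 single mice, all but Control replicates 1, 2 and 5 and GWI replicate 1, took the adjusted p to between 0.0513 and 0.111. The call also ended with library size as the only scaling (edgeR, BH adjusted p = 0.0521) and without a filter (0.0604). Mmp7 lies at chr9:7692090-7699585 (GRCm38), and an antisense gene covers 11.5% of its exons.

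Mmp11, or stromelysin-3, is a product of stromal cells. It was at 1.25 to 5.71 CPM in Control mice (median 3.3) and 1.66 to 2.59 CPM in GWI mice (median 2.07). Every GWI mouse was below the Control median, and Control replicate 8 was the lowest of all. Mmp11 had a log2 fold change of -0.67 (SE 0.22; edgeR, BH adjusted p = 0.0341). Without any of 8 single mice (Control replicates 4, 5 and 6 and GWI replicates 1, 3, 4, 7 and 8) the adjusted p was 0.0507 to 0.0682, by edgeR and BH. Further fits ended the call as well: without Control replicates 6 and 7 (0.0806), without the 5 mice that stood apart (0.0823) and with the smooth muscle covariate (-0.23, adjusted p = 0.412), by edgeR and BH, in a range of 0.00254 to 0.412 over the other fits. It lies at chr10:75923222-75936496 (GRCm38), and the opposite-strand gene Chchd10 covers 5.6% of its exons.

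Mmp2 and Mmp28 were the most abundant secreted enzymes per length, at 4.19 and 2.94 CPM per kb. The gelatinase Mmp2 was at 8.57 to 23.1 CPM in Control mice (median 14.5) and 8.17 to 16.9 CPM in GWI mice (median 13.5). Equal numbers of GWI mice lay above and below the Control median, 4 and 4, and the log2 fold change was -0.17 (SE 0.18; edgeR, BH adjusted p = 0.493), or -0.07 without Control replicate 7 and -0.09 without GWI replicate 7. Mmp28, or epilysin, a product of epithelium, was at 6.41 to 15.3 CPM in Control mice (median 7.65) and 9.96 to 17.3 CPM in GWI mice (median 11.7). In GWI all 8 mice exceeded the Control median, but Control replicates 2, 6, 7 and 8 lay among them. With a log2 fold change of 0.40 it was not called (SE 0.19; edgeR, BH adjusted p = 0.118), and without Control replicates 6 and 7 it was 0.57 (edgeR, BH adjusted p = 0.0404, in a range of 0.00192 to 0.357 over the other fits). An annotated gene on the opposite strand overlaps part of its exons.

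The gelatinase Mmp9, stored by neutrophils and made by macrophages, was low, at 0.623 to 3.37 CPM in Control mice (median 1.62) and 0.631 to 4.08 CPM in GWI mice (median 1.66). The groups coincided, with a log2 fold change of 0.08 (SE 0.37; edgeR, BH adjusted p = 0.881) that turned negative with upper-quartile scaling (-0.01), limma-voom (-0.26) and in 4 of the 17 fits with a mouse left out, which ran from -0.19 to 0.27. The neutrophil collagenase Mmp8 had 0 to 3 counts in a Control mouse and 0 to 2 in a GWI mouse, 10 in all, and was not tested. None of the 4 neutrophil markers passed the filter, and their summed level was at most 1.12 CPM in Control mice and 4.24 CPM in GWI mice. A difference in Mmp8 was not detectable at this depth. Mmp13, an interstitial collagenase, and Mmp19 had log2 fold changes of -0.72 and -0.34 and were not called.

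Of the 7 membrane-bound metalloproteinases, 6 were tested. Mmp15, a membrane-type enzyme of epithelia, had the highest level per length of all 95 genes, 38.2 CPM per kb. It was at 64.1 to 352 CPM in Control mice (median 155) and at 190.3 to 283 CPM in GWI mice (median 273). All 8 GWI mice exceeded the Control median, but Control replicate 1 was the highest of all and replicate 2, at 210.4 CPM, lay inside the GWI range. The log2 fold change of 0.61 (SE 0.24) was not called (edgeR, BH adjusted p = 0.0618), while DESeq2 called it. Without Control replicate 1 it was 0.84 (edgeR, BH adjusted p = 0.00367, in a range of 0.00367 to 0.104 over the 17 fits with a mouse left out), and it was called without Control replicate 1 and GWI replicate 5 (0.81, adjusted p = 0.0056) and without the 5 mice that stood apart (0.66; edgeR, BH adjusted p = 0.00634, in a range of 0.000879 to 0.129 over the other fits).

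Mmp16, a membrane-type enzyme of mesenchymal cells and neurons, was called lower, and each of the 17 fits with a mouse left out kept the call. Its counts were few, 15 to 70 in each Control mouse and 10 to 37 in each GWI mouse. The level was 0.779 to 3.1 CPM in Control mice (median 1.74) and 0.521 to 2.2 CPM in GWI mice (median 0.744). Of the 8 GWI mice, 5 lay below every Control mouse, and GWI replicate 8 lay above the Control median. A log2 fold change of -1.04 was found (SE 0.31; edgeR, BH adjusted p = 0.0215), and it was not called without the 5 mice that stood apart (-0.87, adjusted p = 0.0845) or with the smooth muscle covariate (-0.53; edgeR, BH adjusted p = 0.183, in a range of 0.000953 to 0.183 over the other fits). It lies at chr4:17852893-18119145 (GRCm38), with no overlap with other exons.

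Mmp14 activates the precursor of Mmp2 on the cell surface with the help of Timp2. It stood at 8.63 CPM per kb and was at 20.2 to 61.0 CPM in Control mice (median 50.8) and 42.2 to 75.6 CPM in GWI mice (median 54.5). Control replicate 9 was far below the rest. It had a log2 fold change of 0.14 (SE 0.16; edgeR, BH adjusted p = 0.536), or 0.04 without Control replicate 9 and 0.06 without GWI replicate 5. Mmp17, Mmp24 and Mmp23 had log2 fold changes of -0.68, -0.65 and -0.52 and were not called. edgeR called Mmp17 lower without Control replicate 9 (-0.8, BH adjusted p = 0.0249) and without the 5 mice that stood apart (-0.85, 0.0207). With limma-voom Mmp17, Mmp24 and Mmp23 were called lower (BH adjusted p = 0.000465, 0.00252 and 0.00745). With the smooth muscle covariate they were at 0.27, 0.01 and 0.34 and were not called.

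All 4 inhibitors were tested, and they did not point in 1 direction. Timp3, the inhibitor bound to the matrix, was at 40.6 to 219 CPM in Control mice (median 110.3) and 39.9 to 102 CPM in GWI mice (median 48.6). Each GWI mouse lay below the Control median, and Control replicates 5, 7, 8 and 9, at 90.5, 73.4, 40.6 and 53.5 CPM, lay among them. Timp3 had a log2 fold change of -0.84 (SE 0.29; edgeR, BH adjusted p = 0.0386). Leaving out any of 11 single mice (Control replicates 1, 2, 3, 4 and 6 and GWI replicates 1, 2, 3, 4, 6 and 7) took the adjusted p to between 0.0517 and 0.0813. The call also ended without a filter (edgeR, BH adjusted p = 0.0518) and without Control replicates 6 and 7 (-0.68, adjusted p = 0.0831), though not without all 5 mice that stood apart (-0.76, adjusted p = 0.0296). With a score of the smooth muscle markers as a covariate the log2 fold change was -0.05 (edgeR, BH adjusted p = 0.795, in a range of 0.000237 to 0.795 over the other fits). Timp3 lies at chr10:86300372-86349506 (GRCm38), and exons of Syn3 on the other strand cover 21.3% of its exons. Whether the counting used strand is not stated, so reads of the overlap cannot be told apart.

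Timp2 was the most abundant inhibitor, at 31.9 CPM per kb. It was at 56.0 to 243 CPM in Control mice (median 164) and 77.7 to 137 CPM in GWI mice (median 87.3). The 8 GWI mice all lay below the Control median, yet Control replicates 7, 8 and 9, at 99.7, 71.2 and 56.0 CPM, lay among or below the GWI values. The log2 fold change was -0.59 (SE 0.24; edgeR, BH adjusted p = 0.0739), and without Control replicate 8 or 9 the adjusted p was 0.0333 or 0.0163. DESeq2 called it, and so did edgeR with upper-quartile scaling (-0.68, BH adjusted p = 0.0425). Without the 5 mice that stood apart edgeR called it too (-0.69, BH adjusted p = 0.0139, in a range of 9.28e-05 to 0.35 over the other fits). Timp4, an inhibitor known from heart and fat, pointed the other way, at 1.42 to 5.65 CPM in Control mice (median 2.21) and 2.29 to 15.3 CPM in GWI mice (median 5.34). Its Control median was exceeded by all 8 GWI mice. The log2 fold change of Timp4 was 0.97 (SE 0.40, edgeR, BH adjusted p = 0.079). DESeq2 called it, and so did edgeR without Control replicate 9 (1.13, BH adjusted p = 0.0425), but not without the 5 mice that stood apart. Timp1, which rises in many inflamed tissues, was low and had a log2 fold change of 0.20 (SE 0.27; edgeR, BH adjusted p = 0.588).

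The 5 lysyl oxidases were all tested, with log2 fold changes from -0.63 to -0.02, and edgeR called 0, with 0 at an unadjusted p under 0.05 and 0 by DESeq2. Loxl1, which cross-links elastin, was at 4.6 to 29.9 CPM in Control mice (median 19.4) and 6.17 to 18.2 CPM in GWI mice (median 8.61). The GWI mice all lay below the Control median but inside the Control range, with a log2 fold change of -0.63 (SE 0.34; edgeR, BH adjusted p = 0.166). Loxl2, which cross-links collagen IV, was at 6.13 to 48.6 CPM (median 14.0) and 6.59 to 38.5 CPM (median 11.9), and its log2 fold change was -0.34 (SE 0.39; edgeR, BH adjusted p = 0.52). That value depends on single mice, as it was -0.02 without Control replicate 1 and -0.74 without GWI replicate 5. Lox itself had a log2 fold change of -0.02 (SE 0.29; edgeR, BH adjusted p = 0.965), a value that includes GWI replicate 8 at 15.4 CPM, above every other mouse. The other 7 GWI mice were at 3.64 to 6.57 CPM, and 6 of the 8 lay below the Control median (6.37 CPM, against a GWI median of 4.74). Loxl3 and Loxl4 had log2 fold changes of -0.28 and -0.45.

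Among the ADAMTS proteinases 15 of 19 were tested, 8 with a negative and 7 with a positive log2 fold change, and edgeR called 0, with 3 at an unadjusted p under 0.05; DESeq2 called Adamts8. Adamts1 and Adamts8, which cut proteoglycans such as versican, were the most abundant of their set, at 1.7 and 1.51 CPM per kb. Adamts8 was at 2.6 to 20.1 CPM in Control mice (median 7.79) and 2.95 to 8.45 CPM in GWI mice (median 3.74). The lowest Control mice were replicates 8 and 9, and the log2 fold change was -0.98 (SE 0.37; edgeR, BH adjusted p = 0.0582). Without any of Control replicates 7, 8 and 9 and GWI replicates 5 and 8 the adjusted p was 0.0259 to 0.0496. It was called with upper-quartile scaling (0.0384), without Control replicate 1 and GWI replicate 5 (0.0443) and without the 5 mice that stood apart (edgeR, BH adjusted p = 0.0274, in a range of 0.000982 to 0.223 over the other fits). Adamts1 had a log2 fold change of -0.33 (SE 0.26; edgeR, BH adjusted p = 0.344), and of -0.16 without Control replicate 1, with 4.53 to 18.5 CPM (median 10.4) and 5.73 to 12.8 CPM (median 6.34). The others of that set were Adamts9 (-0.47), Adamts5 (0.11), Adamts15 (0.58) and Adamts4 (0.59), and Adamts20 was not tested. edgeR called Adamts15 higher without GWI replicate 5 (0.74, BH adjusted p = 0.0205). It was also called without Control replicate 1 and GWI replicate 5 (0.0166) and without the 5 mice (0.0354), by edgeR and BH. With the smooth muscle covariate Adamts15 was at 0.38 (edgeR, BH adjusted p = 0.458).

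The procollagen N-proteinases Adamts2 and Adamts3 trim the amino end of fibrillar procollagens. Adamts2 was at 2.51 to 17.9 CPM in Control mice (median 7.89) and 3.92 to 13.9 CPM in GWI mice (median 5.75), with a log2 fold change of -0.21 (SE 0.33; edgeR, BH adjusted p = 0.651). Without Control replicate 1 its sign turned, to 0.05, and it was -0.32 without Control replicate 9, -0.12 without GWI replicate 3 and -0.45 without GWI replicate 5. Adamts3 was at 0.511 to 2.26 CPM (median 1.03) and 0.883 to 2.55 CPM (median 1.34), with a log2 fold change of 0.41 (SE 0.29; edgeR, BH adjusted p = 0.302), or 0.26 without GWI replicate 1. The third enzyme of the set, Adamts14, had a log2 fold change of -0.14.

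Of the other ADAMTS genes, Adamts10, which binds fibrillin microfibrils, and Adamts18 were the most abundant per length. Adamts18 was at 1.52 to 4.41 CPM in Control mice (median 2.23) and 2.27 to 6.42 CPM in GWI mice (median 4.03). All 8 GWI mice exceeded the Control median, and the log2 fold change of 0.61 (SE 0.25) was not called (edgeR, BH adjusted p = 0.0733); without Control replicate 8 or 9 or GWI replicate 5 the adjusted p was 0.0376 to 0.0396. It was also called without Control replicate 1 and GWI replicate 5 together (edgeR, BH adjusted p = 0.0475, in a range of 0.0165 to 0.342 over the other fits). Adamts10 was at 3.41 to 9.27 CPM (median 5.67) and 2.69 to 7.63 CPM (median 4.19), with a log2 fold change of -0.45 (SE 0.21; edgeR, BH adjusted p = 0.117), and of -0.59 without GWI replicate 5 (edgeR, BH adjusted p = 0.0371, in a range of 0.0371 to 0.209 over the 17 fits with a mouse left out). It was also called without Control replicate 1 and GWI replicate 5 (-0.56; edgeR, BH adjusted p = 0.0443, in a range of 0.0443 to 0.282 over the other fits). Adamts19 (-0.50), Adamts7 (-0.49), Adamts17 (0.43) and Adamts16 (0.67) made up the rest.

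The 24 genes that failed the filter were 10 collagens, with 10 to 166 counts over all 17 mice, and 14 enzymes, with 0 to 197. Among them, the cartilage collagen Col2a1 and the growth plate collagen Col10a1 were near absent, with 10 counts each. Col17a1, the hemidesmosome collagen of skin, had 55. Mmp1a had 0 counts in all mice, Mmp1b 1, Mmp27 3 and Mmp10 11. The inducible enzymes Mmp3 and Mmp12, of stroma and macrophages, had 140 and 197. Mmp12 was at 0.126 to 1.6 CPM in Control mice (median 0.83) and 0.0 to 0.574 CPM in GWI mice (median 0.372), and all 8 GWI mice were below the Control median. With the filter and all mice it was not tested, so no call is given for it from that fit. With no filter and all mice it was tested and not called, as the 2 enzymes and inhibitors called lower there were Mmp11 and Mmp16. It passed the filter in 2 fits chosen after the data were seen, where edgeR called it lower. These lacked Control replicate 1 and GWI replicate 5 (-1.28, BH adjusted p = 0.0126) or the 5 mice that stood apart (-1.36, 0.00694). Its counts reached 29 in a Control mouse and 10 in a GWI mouse. It thus passed the filter mainly through Control mice, and these calls are not independent of that. The rest of the untested enzymes were Mmp20, Mmp21, Mmp25, Adamts6, Adamts12 and Adamts13, with 28 to 175 counts in all.

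Many of the matrix genes varied with the smooth muscle markers. The 10 markers were all tested, 7 were called lower in GWI (70.0%, against 13.5% of all tested genes) and 0 higher (against 13.4%), and their median log2 fold change was -0.91. Their summed level was 3690 to 23923 CPM in Control mice (median 11584) and 3658 to 11832 CPM in GWI mice (median 5142), with Myh11 as the most abundant. Control replicates 7, 8 and 9, at 6790, 4702 and 3690 CPM, lay among the GWI mice. GWI replicates 5 and 8, at 11832 and 8419 CPM, were the highest of their group. Control replicates 2 and 3, at 11584 and 11188 CPM, also lay below GWI replicate 5. None of the 10 markers was at 0.

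Within the Control group alone, the correlation between log2 CPM of a gene and the log2 summed marker level had a median of 0.74 over the 71 tested matrix genes and of 0.04 over all tested genes. It was over 0.5 for 44 of the 71 (62.0%), against 32.3% of all tested genes. Within the GWI group the medians were 0.64 and 0.03, and again 44 of 71 (62.0%) exceeded 0.5, against 25.3%. These values describe 9 and 8 mice, genes are not independent of each other, and what they share with the markers includes the scaling of each library. The lowest in Control was Adamts18, with -0.78 (-0.29 in GWI), and the lowest in GWI was Adamts15, with -0.86 (0.07 in Control). Mmp13 was the second lowest in both, with -0.65 and -0.67.

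For the 10 tested genes with the highest level per length, the relation was tested by exact permutation within each group, 20 relations in all. Col4a2 followed the markers most closely in Control mice, with a Pearson r of 0.99 (exact permutation p = 2.76e-06, adjusted 5.52e-05) and a Spearman rho of 1.0 (exact permutation p = 5.51e-06, adjusted 0.00011), and r was 1.0 without the 2 mice farthest from the median. In GWI mice its r was 0.9 (exact permutation p = 0.00382, adjusted 0.00673) and rho 0.69 (exact permutation p = 0.0694, adjusted 0.0868), and r was 0.43 without the 2 farthest mice, so that r rests on them. Timp2 had an r of 0.97 in Control mice (exact permutation p = 9.92e-05, adjusted 0.000496), a rho of 0.85 (exact permutation p = 0.00607, adjusted 0.0152) and an r of 0.9 without the 2 farthest mice. In GWI mice it had an r of 0.9 (exact permutation p = 0.0111, adjusted 0.0139) and a rho of 0.83 (exact permutation p = 0.0154, adjusted 0.028), and r was 0.39 without the 2 farthest mice. Timp3 in GWI mice had an r of 0.89 (exact permutation p = 0.012, adjusted 0.0141) and a rho of 0.67 (exact permutation p = 0.0831, adjusted 0.0923), and r was 0.44 without the 2 farthest mice. Other genes kept a closer relation in GWI without those 2 mice. Col3a1 in GWI mice had an r of 0.92 (exact permutation p = 0.000595, adjusted 0.0017), a rho of 0.9 (exact permutation p = 0.00456, adjusted 0.013) and an r of 0.8 without them. Col1a2 in GWI mice had an r of 0.83 (exact permutation p = 0.00384, adjusted 0.00673), a rho of 0.88 (exact permutation p = 0.00724, adjusted 0.0161) and an r of 0.67 without them. Mmp15 was related in Control mice, with an r of 0.8 (exact permutation p = 0.00792, adjusted 0.0106), a rho of 0.75 (exact permutation p = 0.0255, adjusted 0.0425) and an r of 0.63 without the 2 farthest mice. In GWI mice Mmp15 had an r of 0.24 (exact permutation p = 0.615, adjusted 0.615) and a rho of 0.26 (exact permutation p = 0.536, adjusted 0.536), and r was -0.61 without the 2 farthest mice.

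**Figure D3:**
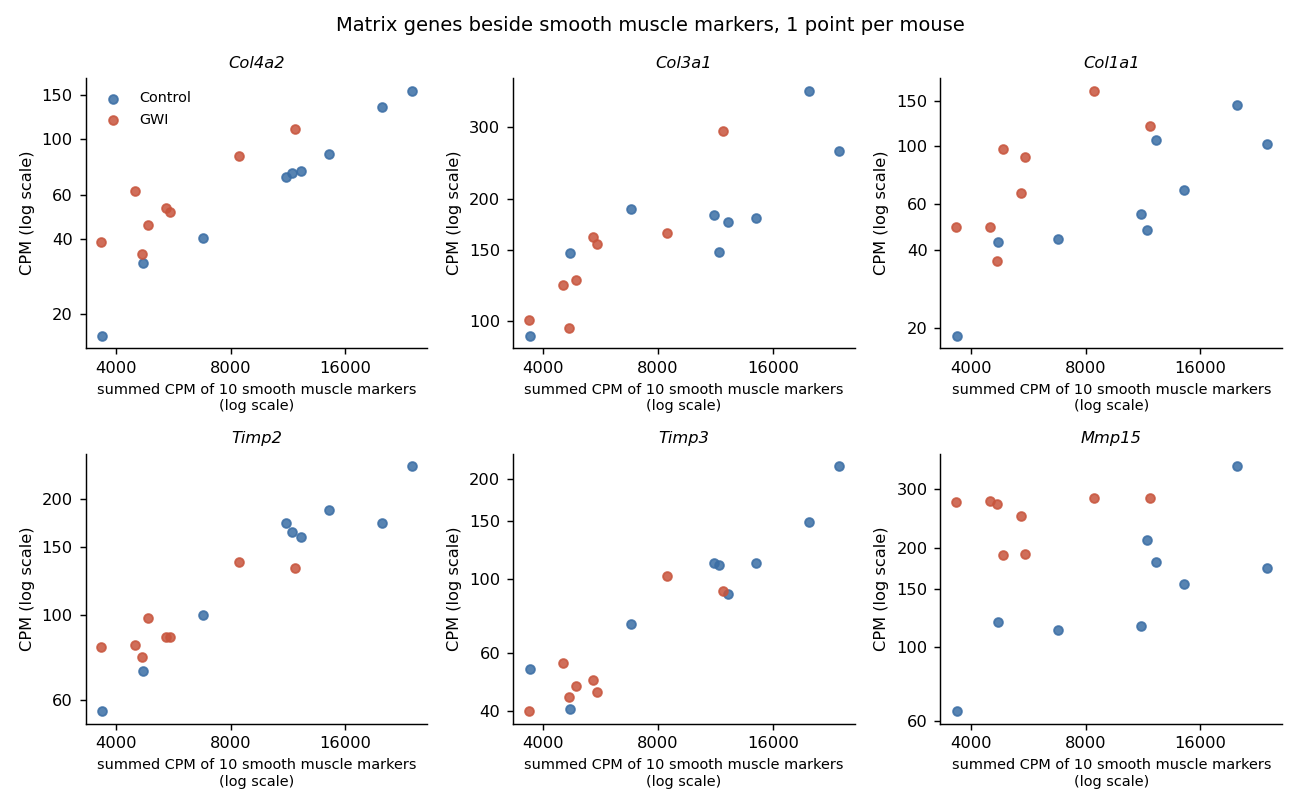
CPM of 6 matrix genes against the summed CPM of 10 smooth muscle markers, on log axes, with 1 point for each of the 9 Control (blue) and 8 GWI (red) mice. Col4a2, Timp2 and Timp3 rise with the markers in Control, and in GWI their highest values are those of replicates 5 and 8, which have the most marker signal, while the 8 values of Mmp15 in GWI stay between 190.3 and 283 CPM over the whole range of the markers.

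With a score of the smooth muscle markers as a covariate, 34 of the 71 matrix genes turned from a negative to a positive log2 fold change. The median log2 fold change became 0.30 over the 34 collagens and 0.20 over the 37 enzymes and inhibitors, with 25 and 28 above 0. edgeR then called 9 collagens higher and 1 lower, and 3 enzymes higher and 2 lower, against 17.8% higher and 19.7% lower over all tested genes. The collagens called higher were Col1a1 (1.14), Col12a1 (0.82), Col4a2 (0.79), Col1a2 (0.65), Col5a1 (0.63), Col6a2 (0.46), Col4a1 (0.43), Col6a3 (0.34) and Col6a1 (0.30), all log2 fold changes. Mmp15 (1.16), Adamts2 (0.60) and Mmp14 (0.42) were called higher. Col28a1 (-0.58) and Mmp7 (-1.9) stayed called lower and Mmp13 (-1.15) was added. Of the calls that ended, Timp3 went from -0.84 to -0.05, Mmp11 from -0.67 to -0.23 and Mmp16 from -1.04 to -0.53, whereas Col20a1 kept its log2 fold change, 0.65 against 0.61 (edgeR, BH adjusted p = 0.0512). Genes that turned above 0 without a call were Loxl2 (0.48), Loxl1 (0.42), Col18a1 (0.41), Col16a1 (0.31), Adamts1 (0.20), Adamts8 (0.20), Col3a1 (0.18), Timp2 (0.14) and Col25a1 (0.09), among others, and Adamts18 went from 0.61 to 0.30. The score differs between the groups, so a difference in muscle content and a difference in matrix genes cannot be told apart by this design.

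Ratios within a mouse do not depend on the scaling of its library. They were chosen after the values were seen and were not tested. The ratio of Col1a1 to Col1a2 counts, the chains that join in type I collagen, was 0.613 to 1.07 in Control mice (median 0.804) and 0.864 to 1.4 in GWI mice (median 1.05). All 8 GWI mice exceeded the Control median and 2 exceeded every Control mouse; without the 5 mice that stood apart the medians were 0.82 and 1.05. Col1a1 to Col3a1 was 0.203 to 0.603 in Control mice (median 0.323) and 0.377 to 0.992 in GWI mice (median 0.449), with all 8 GWI mice above the Control median. Timp2 to Mmp14 was 1.36 to 4.19 in Control mice (median 3.17) and 1.46 to 2.6 in GWI mice (median 1.72), and all 8 GWI mice were below the Control median. Mmp14 to Mmp2 was 2.12 to 4.54 in Control mice (median 3.34) and 2.75 to 5.19 in GWI mice (median 4.57), with 6 of 8 GWI mice above the Control median. Other ratios differed less. Col5a1 to Col5a2 had medians of 0.714 in Control and 0.739 in GWI mice, with 5 GWI mice above and 3 below the Control median. Col6a1 to Col6a2 had medians of 1.54 and 1.43, with all 8 GWI mice below the Control median, and without the 5 mice that stood apart the medians were 1.41 and 1.43. Col6a3 to Col6a2 had medians of 0.843 and 0.758, with 6 GWI mice below the Control median. The groups overlapped in each of these ratios and in that of Col4a1 to Col4a2.

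Among 24 genes that fold, modify and process collagen, 5 were called lower (20.8%, against 13.5% of all tested genes) and 0 higher (against 13.4%) by edgeR, with 1 higher at an unadjusted p under 0.05, and the median log2 fold change was -0.22. Their summed level, led by P4hb (0.28), went the other way, with a median of 1524 CPM in Control mice and 1612 CPM in GWI mice, and 1 of 8 GWI mice lay below the Control median. Those with the smallest p-values were the prolyl hydroxylase partner P3h4 (-0.39, SE 0.12; edgeR, BH adjusted p = 0.0258), the procollagen C-proteinase Tll1 (-0.75, SE 0.25; adjusted p = 0.0326) and the collagen galactosyltransferase Colgalt2 (-0.79, SE 0.27; adjusted p = 0.0374). The collagen chaperone Serpinh1 had a log2 fold change of -0.34 (SE 0.23; edgeR, BH adjusted p = 0.277).

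Of the 27 genes of elastic fibres, fibronectin and small proteoglycans, all tested, edgeR called 5 lower (18.5%, against 13.5% of all tested genes) and 0 higher, with 0 higher at an unadjusted p under 0.05. The log2 fold change was negative for all 27, with a median of -0.53, and 22 of them were not called. Postn, a matricellular protein of stromal cells, was at 206 ± 108 CPM in Control mice (mean ± SD, n = 9) and 95.1 ± 26.4 CPM in GWI mice (n = 8), a log2 fold change of -1.11 (SE 0.26; edgeR, BH adjusted p = 0.00579). Dcn, or decorin, which binds collagen fibrils, had a log2 fold change of -0.75 (SE 0.20; edgeR, BH adjusted p = 0.0119) and Ogn, or osteoglycin, of -0.82 (SE 0.22; adjusted p = 0.0122).

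The next 3 lists are short, and their counts of calls stand beside 13.5% lower and 13.4% higher over all tested genes. Of 16 basement membrane partners of collagen IV, 15 were tested, with 2 called lower, 1 called higher and a median of -0.29. Their summed level, led by Lamb3 (0.66), had a median of 639.6 CPM in Control mice and 701 CPM in GWI mice, with 1 of 8 GWI mice below the Control median. The laminin chains Lama4 (-0.78, SE 0.25; edgeR, BH adjusted p = 0.0293) and Lama2 (-0.59, SE 0.20; adjusted p = 0.0393), made by endothelium and muscle, were lower. Agrn, or agrin, was higher (0.44, SE 0.10; edgeR, BH adjusted p = 0.00425). Of 14 genes of transforming growth factor beta signalling, a main inducer of collagen genes, Tgfbr3 was called lower (-0.80, SE 0.23; edgeR, BH adjusted p = 0.0164), and the feedback inhibitors Skil (0.95, SE 0.24; adjusted p = 0.00977) and Smad7 (0.69, SE 0.20; adjusted p = 0.0203) were called higher, with a median of -0.39 over the list. Of 12 collagen receptors and plasmin system genes, 2 were called lower and 2 higher, counts near those shares, with a median of -0.31. The receptors Ddr1 (0.66, SE 0.18; edgeR, BH adjusted p = 0.0128) and Itga2 (0.87, SE 0.28; adjusted p = 0.0288), mainly of epithelium, were higher. The metalloproteinase inhibitor Reck (-0.85, SE 0.27; edgeR, BH adjusted p = 0.0257) and the mesenchymal collagen receptor Ddr2 (-0.72, SE 0.26; adjusted p = 0.0487) were lower.

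The part of other cell types in the matrix results was not tested, and their marker lists are short. The counts of called markers stand beside 13.5% lower and 13.4% higher over all tested genes. Of 7 tested fibroblast markers 1 was called lower, with Dpt as the most abundant, a median of -0.35 and a summed level of 124 to 370.3 CPM in Control mice (median 232) and 119.7 to 232 CPM in GWI mice (median 156). Of 5 mural cell markers 2 were called lower, Rgs5 (-1.14) and Kcnj8 (-0.76), with a median of -0.34, while Cspg4 (-0.34), Notch3 (-0.01) and Pdgfrb (0.26) were not called. Their sum, of which Rgs5 made up most (a mean of 871 of 942 CPM in Control), therefore follows 1 gene and was 534 to 1764 CPM (median 838) in Control and 291 to 710.0 CPM (median 386) in GWI, with all 8 GWI mice below the Control median. Of 7 blood endothelium markers 4 were called lower, with a median of -0.58 and a sum, led by Pecam1, of 48.0 to 160.3 CPM (median 99.9) in Control and 45.0 to 95.5 CPM (median 71.9) in GWI. Of 4 enteric glia markers 2 were called lower, with a median of -0.99 and, with S100b (0.36) included, a sum of 24.3 to 77.4 CPM (median 56.3) in Control and 20.1 to 56.2 CPM (median 30.4) in GWI. Of 11 colon epithelium markers 3 were called higher, with a median of 0.40. A negative log2 fold change was found for 4: Car1, the most abundant in Control mice (-0.06), Lgals4 (-0.11), Slc26a3 (-0.06) and Guca2a (-0.05). Of 3 adipocyte markers 1 was called higher, and the sum, led by Cidec, was 15.2 to 106 CPM (median 38.2) in Control and 42.7 to 291 CPM (median 85.5) in GWI. edgeR called 0 of 5 mesothelium, 4 enteric neuron and 4 macrophage markers, with 0, 0 and 1 at an unadjusted p under 0.05. Their median log2 fold changes were -0.07, -0.58 and -0.33, with 3, 4 and 4 of the markers negative. The summed levels lay below the Control median in 5, 6 and 8 of the 8 GWI mice. Of the small intestine markers 4 of 7 were tested, with Fabp6 called lower and Alpi called higher. Fabp6 was at 119 and 314 CPM in Control replicates 6 and 7, against at most 6.9 CPM in the other mice. Of the skeletal muscle markers 3 of 5 were tested and 1 was called lower.

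Promoter windows, the 250 bases before a transcription start, were available in RefSeq (GRCm38.p6) for 49 of the 71 tested matrix genes, 53 windows in all. GGGCGG, the core of a GC box, was found on either strand in 67.9% of these windows and in 32.7% of all 32851 windows. CCAAT was found in 32.1% and 33.8%, and TATAAA in 11.3% and 12.4%. A CArG box, the motif bound by serum response factor in smooth muscle genes, was found in 1 of the 53 windows, that of Col6a4, and in 1.47% of all windows. The 100 bases before the start are shown for 3 genes called lower in GWI, to set a promoter with TATAAA beside one with GGGCGG and one with neither; capitals mark these letters, on the strand of the gene. That of Col28a1 is chr6:8192618-8192717 (minus strand), that of Mmp11 is chr10:75932503-75932602 (minus strand; before the RefSeq start, which lies inside the longer GENCODE gene) and that of Mmp7 is chr9:7691990-7692089 (plus strand), and no annotated exon lies in them.
Col28a1: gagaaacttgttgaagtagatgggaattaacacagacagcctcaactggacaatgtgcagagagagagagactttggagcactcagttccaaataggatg
Mmp11: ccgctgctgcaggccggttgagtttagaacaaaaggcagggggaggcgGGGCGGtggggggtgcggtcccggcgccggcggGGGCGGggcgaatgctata
Mmp7: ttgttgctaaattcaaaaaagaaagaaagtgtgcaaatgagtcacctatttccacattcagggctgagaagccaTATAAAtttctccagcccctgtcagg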

How the data were processed

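RNA was measured in the colons of 17 mice. The authors used STAR 2.5.2b to map reads to GRCm38 after trimming (Trimmomatic 0.36), and the deposited values are raw whole-number counts per gene; all 17 columns matched a sample. The strand setting of the counting is not stated. Here the counts were filtered by filterByExpr, scaled by TMM and tested with edgeR 4.0.16 (glmQLFit, robust, and glmQLFTest) in R 4.3.3, with group as the only term and Benjamini-Hochberg adjustment over 14146 genes; the steps were tested on simulated data. limma 3.58.1 and DESeq2 1.42.0 served in alternatives: 10 other planned fits, 17 with a mouse left out, 2 other thresholds and 3 fits added after the data were seen. Exon lengths, positions and overlaps came from GENCODE M21. Samples share undefined parts of their names, which were not modelled. Members and lists were chosen with earlier results of these data known. Named members were, in each sub-family, up to 4 called genes per direction and the 2 with the highest level per kb, plus Mmp2, Mmp8 and Mmp9; of other lists, up to 3 called genes per direction. Other members named were chosen after their values were seen. Depth limits low genes, and reads carry no molecular identifiers, so counting error is not the only error.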

Additional observations from a re-analysis of the deposited data

Results flagged for a closer look

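Across the named genes, 66 groups of values (33 genes in Control and in GWI) were checked for a mouse far from the rest of its group, and 9 such values were found. Chance flags about 1 in 20 groups where values are normal and groups independent. Here the values were CPM and the genes vary together, with several flags from 1 mouse, so the 9 cannot be set against that rate. GWI replicate 5 was far above the other GWI mice for Col3a1 (293 CPM, next 165), Loxl2 (38.5 CPM, next 16.5), Col16a1 (39.2 CPM, next 23.6) and Adamts2 (13.9 CPM, next 7.86). Control replicate 1 was far above the other Control mice for Adamts2 (17.9 CPM, next 9.75). GWI replicate 8 was highest for Col18a1 (53.0 CPM, next 36.6). Control replicate 9 was lowest for Mmp14 (20.2 CPM, next 47.7). Mmp7 was highest in Control replicate 7 (10.8 CPM, next 4.52) and, among GWI mice, in replicate 1 (2.86 CPM, next 1.37).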

How the results depend on the processing

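The groups are 9 and 8 bulk samples, so cell content and level per cell cannot be separated, and the cause was not tested. Mmp7, with few counts in some mice, has a wide error (SE 0.52). The fits without Control replicates 6 and 7, without Control replicate 1 and GWI replicate 5, and without Control replicates 1, 6, 7 and 9 and GWI replicate 5 were chosen after the data were seen.

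Collagens called lower numbered 1. The count was 2 with DESeq2 size factors, 4 with upper-quartile factors, 2 with at least 10 counts in every mouse, 5 with the DESeq2 test, 20 with limma-voom and quality weights, 4 without Control replicate 1 and GWI replicate 5 and 6 without the 5 mice; with a mouse left out it ranged from 1 to 5. Collagens called higher numbered 1. The count was 0 with DESeq2 size factors, upper-quartile factors, no filter, each of the 3 added fits and an unadjusted p under 0.05 with an absolute log2 fold change over 1, and 9 with the smooth muscle covariate; with a mouse left out it ranged from 0 to 1.

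Enzymes and inhibitors called lower numbered 4. The count was 7 with upper-quartile factors, 2 with no filter, 2 with the smooth muscle covariate, 16 with limma-voom, 1 without Control replicates 6 and 7, 7 without Control replicate 1 and GWI replicate 5 (with Mmp12, which failed the filter with all mice) and 2 at the unadjusted p with the fold change limit; with a mouse left out it ranged from 1 to 6. Those called higher numbered 0. The count was 3 with the covariate, 2 with the DESeq2 test, 4 with limma-voom, 1 without Control replicates 6 and 7, 3 without Control replicate 1 and GWI replicate 5 and 2 without the 5 mice; with a mouse left out it ranged from 0 to 2.

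Over all tested genes 1903 were called lower and 1889 higher. These became 2992 and 1214 with upper-quartile factors, 4180 and 3911 with limma-voom, and 250 and 92 at the unadjusted p with the fold change limit. With a mouse left out they ranged from 1309 to 2295 lower and from 1472 to 2523 higher.

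With the smooth muscle covariate the median log2 fold change turned to 0.30 for collagens and 0.20 for enzymes and inhibitors. The log2 fold change turned to 0.20 for Adamts1, 0.60 for Adamts2, 0.20 for Adamts8, 0.82 for Col12a1, 0.31 for Col16a1, 0.41 for Col18a1, 0.09 for Col25a1, 0.18 for Col3a1, 0.43 for Col4a1, 0.79 for Col4a2, 0.30 for Col6a1, 0.46 for Col6a2, 0.42 for Loxl1, 0.48 for Loxl2 and 0.14 for Timp2. With limma-voom it turned to -0.01 for Col15a1, -0.13 for Col1a1 and -0.26 for Mmp9, and with upper-quartile factors to -0.01 for Mmp9. With a mouse left out it ranged from -0.45 to 0.05 for Adamts2, turning without Control replicate 1, and from -0.19 to 0.27 for Mmp9.

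The groups share replicate numbers. With the number as a replicate block, 0 collagens and 0 enzymes or inhibitors were called in either direction, and 826 genes were called lower and 1415 higher over all tested genes. The numbers do not appear to pair mice: correlations between mice of the same number ran from -0.51 to 0.11, and 0 of 8 GWI mice correlated best with the Control mouse of their number.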
